A study of Mus musculus with 6 samples.

Results

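The enzymes described here carry out the breakdown of histidine, proline, ornithine, lysine, glycine and the branched-chain amino acids, or move amino groups between amino acids and keto acids, in mouse liver. The list was set by gene symbol, with earlier results of these data known, and holds 37 genes. Of these, 34 were measured by a probe set that the array annotation assigns to that gene alone, out of 18193 genes measured in this way. Sds, Sdsl and Amt were not analysed here, which leaves no serine dehydratase and no T protein of the glycine cleavage system. Each gene was represented by its brightest probe set, judged by the mean of its log2 values on all 6 arrays.

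Whole liver of 3 FRG-7dNTBC and 3 FRG+NTBC mice was profiled on Affymetrix Mouse 430 2.0 arrays, with 1 array per mouse. All 6 were male FRG mice on a C57Bl/6J background, 12 weeks old at sampling, and all carried the Fah-/-, Rag2-/- and Il2rg-/- knockouts, so that the animals of both groups lack the last enzyme of tyrosine breakdown and have no mature T, B or NK cells. FRG-7dNTBC mice had NTBC withdrawn at 11 weeks of age and were sampled after 7 days without it, whereas FRG+NTBC mice stayed on 16 mg/L NTBC in their drinking water. NTBC (nitisinone) inhibits Hpd, which acts earlier in tyrosine breakdown than Fah, and thereby keeps toxic products from forming. Chow low in tyrosine and phenylalanine was given to all of them. No wild-type array belongs to the series, so both groups are states of one knockout model.

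Hepatocytes are the main site where surplus amino acids are broken down. The amino group is passed on by transaminases or set free by deaminating enzymes and ends up in urea, while the carbon skeleton is oxidised or used to make glucose. Many of these enzymes are enriched in periportal hepatocytes, and their genes respond to glucagon, glucocorticoids and dietary protein. Branched-chain amino acids differ in that their transamination takes place mostly outside the liver, whereas the oxidation of the resulting keto acids is active in hepatocytes.

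The table held 45037 probe sets with deposited intensities of 3.84 to 29532, and the median intensity was 33.1 to 34.3 in FRG-7dNTBC livers and 35.3 to 36.5 in FRG+NTBC livers. Log2 values of 2 arrays correlated across probe sets at 0.98 to 0.99 within FRG-7dNTBC, 0.988 to 0.993 within FRG+NTBC and 0.93 to 0.955 between the groups. Intensity of Rag2, one of the deleted genes, averaged 20.1 in FRG-7dNTBC and 20.1 in FRG+NTBC livers, near the bottom of the scale. Fah, deleted in all mice, still gave a signal of 119, 81.0 and 86.8 in FRG-7dNTBC livers against 215, 182 and 197 in FRG+NTBC livers, called lower (log2 fold change -1.07, limma adjusted p = 0.00258). Where its probes lie relative to the deletion is not given in the sources used here, so Fah does not check the labels. Hepatocyte markers (Alb, Ttr, Apoa1, Apob and Serpinc1) were among the brightest genes, with a summed intensity of 92978 to 96715 in FRG-7dNTBC and 98195 to 98277 in FRG+NTBC livers, and 0 of these 5 passed the test. Alb, Ttr and Apoa1, which make up most of that sum, lay close to the top of the scale (29532). A fall there may not be seen, so the sum does not measure hepatocyte content.

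To find out which of these enzymes differed after NTBC withdrawal, log2 intensities were compared with limma, with p-values adjusted by the Benjamini-Hochberg method over all probe sets and a call made at an adjusted p under 0.05. Of the 34 enzymes, 18 (52.9%) fell and 2 rose in FRG-7dNTBC livers, while 14 did not pass the test. Among all genes tested, 12.7% were called lower and 17.4% higher, so falls were more frequent among the enzymes than in the background and rises were less so. The list was chosen with earlier results of these data known, so this difference describes the list and tests nothing. The median log2 fold change was -0.60 for the enzymes and -0.05 for all genes, and the enzymes ranged from -3.38 to 2.13. At a fold of 2 or more, 11 enzymes were called lower (background 4.95%), the dim Bcat2 among them, and 1 was called higher (background 8.94%). A fold of 5 or more was reached by Amdhd1, Prodh, Hal and Uroc1, all lower, against a background of 0.786%, and by no enzyme that rose (background 0.989%). Without dim probe sets, 17 of 33 enzymes were lower and 2 higher, where 17.8% of all genes were lower and 26.1% higher. In 20 enzymes every FRG-7dNTBC mouse lay below every FRG+NTBC mouse, and in 3 every FRG-7dNTBC mouse lay above (background 23.4% and 22.8%, or 46.2% for both directions together). RNA was taken from whole liver, in which fewer cells of a type and less RNA per cell cannot be told apart. Without moderation of the variances the enzymes called lower numbered 10, and without FRG-7dNTBC replicate 3 those called higher numbered 5.

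**Figure D1:**
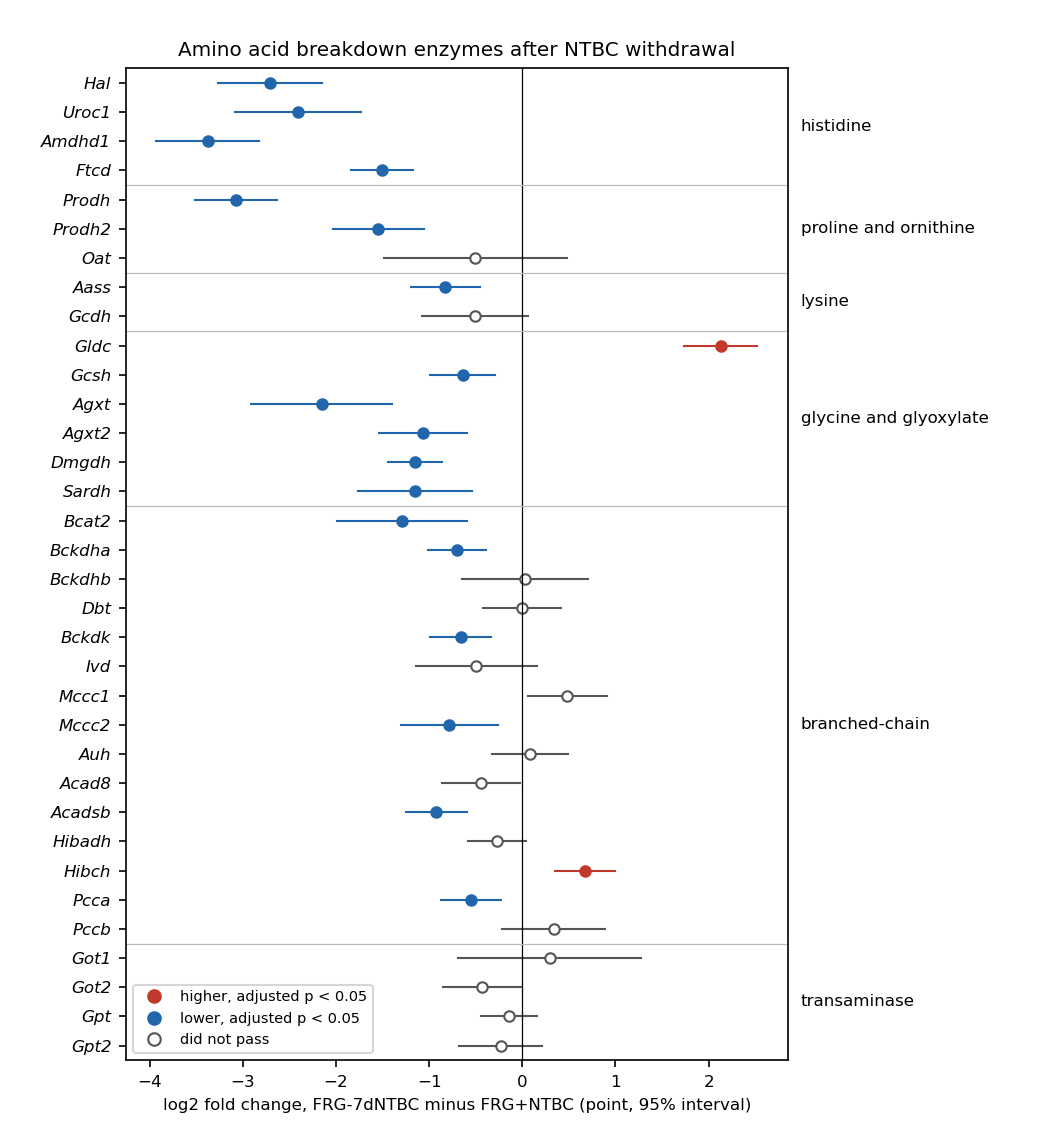
Difference in log2 intensity between 3 FRG-7dNTBC and 3 FRG+NTBC mice for the 34 enzymes in order of amino acid; points are limma estimates and bars their 95% intervals. All 4 histidine enzymes lie left of -1.5, Gldc stands alone at 2.13, and the transaminases lie around 0.

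The genes of histidine breakdown were lower at every step measured, with 4 of 4 enzymes called lower (12.7% of all genes) and a median log2 fold change of -2.56. Hal (histidase) removes the amino group of histidine as ammonia and yields urocanate. Hal intensity was 488, 391 and 239 in the FRG-7dNTBC mice and 2257, 2452 and 2288 in the FRG+NTBC mice. The groups were far apart, and the FRG-7dNTBC mice varied more among themselves than the FRG+NTBC mice did. This was a log2 fold change of -2.71 (SE 0.24, limma adjusted p = 0.00022), or 6.53-fold lower. Uroc1 (urocanase), the next enzyme of the pathway, had 1193, 501 and 1024 in FRG-7dNTBC livers against 4545, 4451 and 4513 in FRG+NTBC livers. FRG-7dNTBC replicate 2 was the lowest, whereas the FRG+NTBC values lay close together. Its log2 fold change was -2.41 (SE 0.29, limma adjusted p = 0.000794).

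Amdhd1, the imidazolonepropionase that opens the ring, showed the largest fall of all the enzymes described here. Its intensity was 184, 159 and 125 in FRG-7dNTBC livers and 1121, 1911 and 1911 in FRG+NTBC livers, with no overlap, a log2 fold change of -3.38 (SE 0.24, limma adjusted p = 9.24e-05) or 10.4-fold. This was the 43rd largest fall of all genes measured. Ftcd, which hands the formimino group left from histidine to tetrahydrofolate, had 1541, 1872 and 1438 in FRG-7dNTBC against 4182, 4939 and 4640 in FRG+NTBC livers. The groups did not overlap, and Ftcd fell by 1.51 on the log2 scale (SE 0.14, limma adjusted p = 0.000294). A further probe set each of Uroc1 and Amdhd1 was also lower, with log2 fold changes of -2.31 and -3.04. The calls of all 4 held under every alternative in which they were computed.

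Hal and Amdhd1 are neighbouring protein-coding genes on mouse chromosome 10, on opposite strands, and both fell. Their upstream windows lie at the outer ends of the gene pair, so these genes share no upstream window. The sequence upstream of each histidine gene is shown. The runs come from RefSeq (GRCm38.p6), read 5′ to 3′ on the strand of each gene, and cover those of the 250 bases before the start site that lie outside the annotated gene. They span chr10:93488518-93488767 (+) for Hal, chr6:90333039-90333238 (+) for Uroc1, chr10:93540112-93540283 (-) for Amdhd1 and chr10:76575398-76575647 (+) for Ftcd.
Hal: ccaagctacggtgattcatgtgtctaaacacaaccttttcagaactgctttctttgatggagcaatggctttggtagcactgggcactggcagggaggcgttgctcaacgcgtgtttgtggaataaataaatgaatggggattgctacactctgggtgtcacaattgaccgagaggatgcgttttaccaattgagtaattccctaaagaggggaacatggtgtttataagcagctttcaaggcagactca
Uroc1: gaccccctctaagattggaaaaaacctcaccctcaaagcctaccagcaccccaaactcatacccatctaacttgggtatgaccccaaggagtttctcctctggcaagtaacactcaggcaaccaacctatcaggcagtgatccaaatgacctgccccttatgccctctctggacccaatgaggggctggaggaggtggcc
Amdhd1: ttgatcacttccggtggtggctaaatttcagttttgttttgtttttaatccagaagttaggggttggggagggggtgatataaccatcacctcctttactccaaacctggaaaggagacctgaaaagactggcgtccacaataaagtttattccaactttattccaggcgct
Ftcd: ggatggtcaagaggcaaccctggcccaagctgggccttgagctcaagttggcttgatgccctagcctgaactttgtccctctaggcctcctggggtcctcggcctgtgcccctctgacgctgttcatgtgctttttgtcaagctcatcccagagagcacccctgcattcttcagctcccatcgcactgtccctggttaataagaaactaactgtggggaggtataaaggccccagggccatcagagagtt
On both strands, 4 motifs were looked for in the 250 bases before each start site. None of the histidine windows held TGACNNNGC (antioxidant response element core, in 10.2% of 32851 windows), TGATGNAA (C/EBP-ATF element, 3.45%), TGACGTCA (cAMP response element, 1.55%) or CAAAGTCCA (HNF4 site, 0.384%). Among the 33 enzymes matched to a window, TGACNNNGC occurred for Prodh and Bckdhb, TGATGNAA for Got1 and CAAAGTCCA for Agxt2. A match is a description of the sequence and not a bound site.

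**Figure D2:**
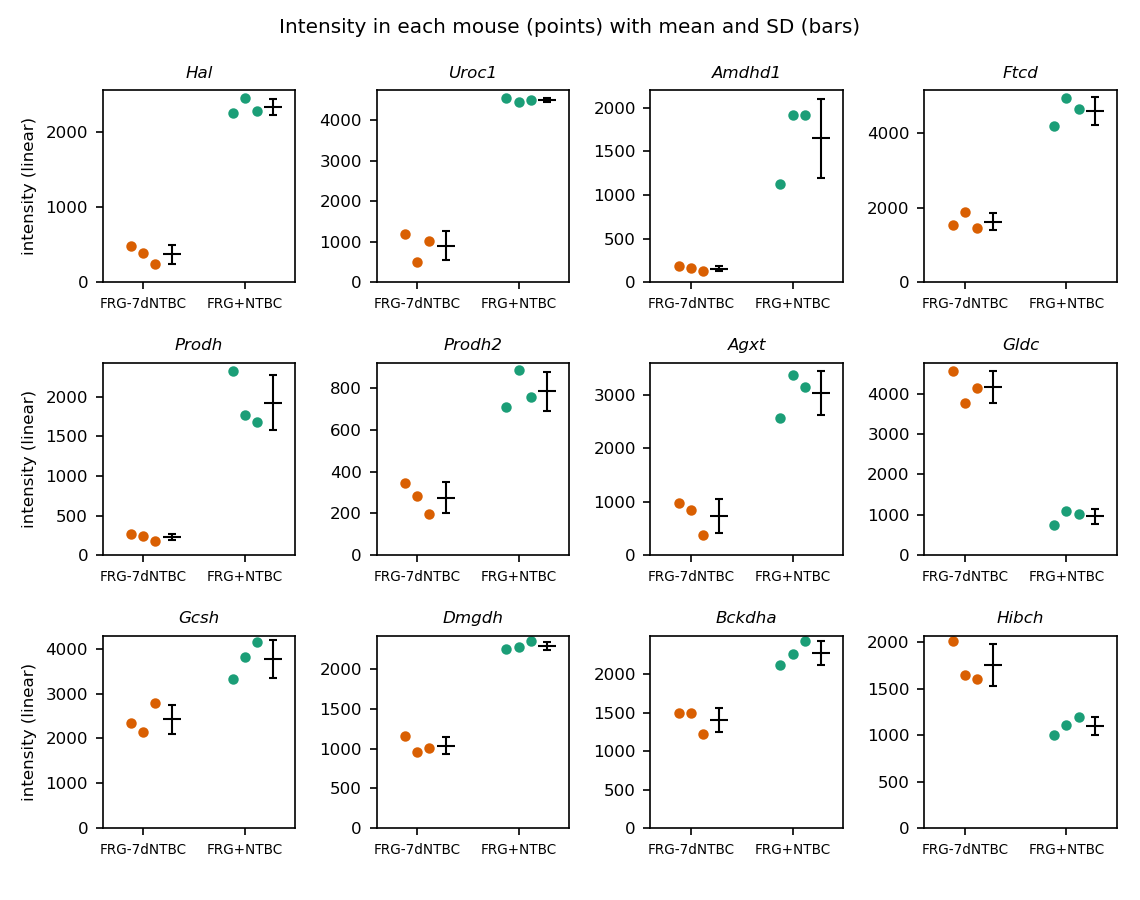
Intensity (linear scale) of 12 enzymes in each mouse, FRG-7dNTBC left and FRG+NTBC right, with the mean and SD of 3 mice. Gldc and Hibch are higher in all FRG-7dNTBC mice, and the other 10 panels show every FRG-7dNTBC mouse below every FRG+NTBC mouse.

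Of the 3 proline and ornithine enzymes, both proline dehydrogenases fell and ornithine aminotransferase did not pass the test. Prodh, the mitochondrial enzyme that starts proline oxidation, had an intensity of 269, 236 and 182 in FRG-7dNTBC livers and 2320, 1771 and 1675 in FRG+NTBC livers. All FRG-7dNTBC mice lay well below the lowest FRG+NTBC mouse, and the difference was 8.42-fold (log2 fold change -3.07, SE 0.19, limma adjusted p = 5.48e-05). Prodh2, the hydroxyproline dehydrogenase, had 345, 284 and 195 in FRG-7dNTBC against 709, 885 and 755 in FRG+NTBC livers. The groups did not overlap, and Prodh2 fell by 1.54 on the log2 scale (SE 0.21, limma adjusted p = 0.00138). Oat, which converts ornithine to glutamate semialdehyde, had 282, 422 and 124 in FRG-7dNTBC livers and 388, 242 and 446 in FRG+NTBC livers. Here the groups overlapped, and the 95% interval of the log2 fold change (-1.49 to 0.48) includes a fall as well as a small rise. Aldh4a1, the dehydrogenase into which proline and ornithine breakdown both feed, was at a log2 fold change of -0.46 (limma adjusted p = 0.134).

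The window of Prodh is shown because it holds one of the motifs, on chr16:18089284-18089440 (-), with the match to TGACNNNGC on the opposite strand in capitals.
Prodh: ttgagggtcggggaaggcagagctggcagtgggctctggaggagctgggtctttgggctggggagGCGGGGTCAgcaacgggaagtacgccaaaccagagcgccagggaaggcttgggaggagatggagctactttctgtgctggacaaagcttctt
The same motif occurs in 10.2% of all windows, and no value measured here bears on its use.

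Lysine breakdown was represented by 2 enzymes. Aass, the bifunctional enzyme that starts lysine breakdown in mitochondria, had an intensity of 1305, 1017 and 1038 in FRG-7dNTBC livers and 1885, 1758 and 2320 in FRG+NTBC livers. The groups did not overlap, and Aass fell by 0.83 on the log2 scale (SE 0.16, limma adjusted p = 0.00661). Gcdh (glutaryl-CoA dehydrogenase), further down the pathway, had 1209, 1418 and 776 in FRG-7dNTBC livers and 1235, 1859 and 1663 in FRG+NTBC livers. The groups overlapped, with a log2 fold change of -0.51 (95% interval -1.08 to 0.06, limma adjusted p = 0.169). Of 4 neighbouring lysine enzymes, Pipox, the pipecolate oxidase, fell by 1.43 (limma adjusted p = 0.00057) and Dhtkd1, part of the 2-oxoadipate dehydrogenase, by 1.21 (limma adjusted p = 0.0404). The call of Dhtkd1 was lost without FRG+NTBC replicate 1, FRG+NTBC replicate 3, FRG-7dNTBC replicate 2 or FRG-7dNTBC replicate 3 (limma adjusted p = 0.124, 0.0948, 0.0563 and 0.0744, and 0.0184 to 0.178 over its alternatives). Aass was not called without moderation (limma adjusted p = 0.0518, and 0.00269 to 0.0518 over its alternatives).

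Glycine and glyoxylate enzymes changed in opposite directions, with 1 called higher and 5 called lower of 6 measured, against 17.4% higher and 12.7% lower among all genes. Gldc, the glycine decarboxylase or P protein of the mitochondrial glycine cleavage system, had an intensity of 4576, 3769 and 4153 in FRG-7dNTBC livers and 755, 1098 and 1031 in FRG+NTBC livers. Even the lowest FRG-7dNTBC mouse lay far above the highest FRG+NTBC mouse. Gldc rose 4.38-fold, a log2 fold change of 2.13 (SE 0.17, limma adjusted p = 0.000145), and kept this call under every alternative. Its partner Gcsh, the H protein that carries the intermediate on a lipoyl arm, went the other way, with 2353, 2135 and 2778 in FRG-7dNTBC against 3327, 3822 and 4153 in FRG+NTBC livers. Gcsh fell by 0.64 on the log2 scale (SE 0.15, limma adjusted p = 0.015). Dld, the L protein, which also serves the keto acid dehydrogenases, had 798, 1105 and 648 in FRG-7dNTBC livers and 206.5, 304 and 488 in FRG+NTBC livers. As with Gldc, all FRG-7dNTBC mice lay above all FRG+NTBC mice, and Dld rose by 1.41 (limma adjusted p = 0.0129), a call that was lost without FRG+NTBC replicate 2 (limma adjusted p = 0.0521, and 0.00412 to 0.107 over its alternatives) and with the mean of its probe sets (log2 fold change 0.53).

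Both glyoxylate aminotransferases fell. Agxt, which turns glyoxylate and alanine into glycine and pyruvate, had 975.5, 838 and 380 in FRG-7dNTBC livers against 2574, 3373 and 3148 in FRG+NTBC livers. FRG-7dNTBC replicate 3 was lowest, and the groups did not overlap (log2 fold change -2.15, SE 0.33, limma adjusted p = 0.00215, or 4.45-fold lower). Agxt2, the mitochondrial relative that also handles beta-aminoisobutyrate, had 431, 644 and 605 in FRG-7dNTBC livers and 917, 1243 and 1351 in FRG+NTBC livers, a fall of 1.07 on the log2 scale (SE 0.21, limma adjusted p = 0.0065). The enzymes that make glycine from choline products fell as well. Dmgdh (dimethylglycine dehydrogenase) had 1160, 955 and 1003 in FRG-7dNTBC livers against 2257, 2288 and 2353 in FRG+NTBC livers, and its log2 fold change was -1.15 (SE 0.13, limma adjusted p = 0.000488). Sardh (sarcosine dehydrogenase), the next step, had 1261, 1226 and 617 in FRG-7dNTBC livers against 2034, 2320 and 2210 in FRG+NTBC livers (log2 fold change -1.15, SE 0.26, limma adjusted p = 0.014). A further Sardh probe set was at -1.61.

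Among 7 neighbouring serine, glycine and glyoxylate enzymes, 4 fell and Dld alone rose, against 12.7% and 17.4% of all genes. They included Shmt1 and Shmt2, the cytosolic and mitochondrial enzymes that interconvert serine and glycine, with log2 fold changes of -1.20 and -1.12 (limma adjusted p = 0.00262 and 0.00264). Hao1, the glycolate oxidase that makes glyoxylate, was at -0.93 (limma adjusted p = 0.0262). The Shmt calls were lost without probe sets that may match several transcripts, with log2 fold changes of -0.56 and -0.22 (limma adjusted p = 0.141 and 0.55). Shmt1 was lost too with the mean of its probe sets (-0.56, limma adjusted p = 0.0944). Over the alternatives, limma adjusted p was 0.00142 to 0.141 for Shmt1 and 0.00147 to 0.55 for Shmt2. The Hao1 call was lost without any of 4 single mice, FRG+NTBC replicates 2 and 3 and FRG-7dNTBC replicates 1 and 3 (limma adjusted p = 0.101, 0.0865, 0.0688 and 0.0555, and 0.00315 to 0.134 over its alternatives). Without FRG+NTBC replicate 2, the glycine and glyoxylate enzymes called lower numbered 3, because Gcsh (limma adjusted p = 0.0579, and 0.00318 to 0.0647 over its alternatives) and Sardh (0.0583, and 0.00141 to 0.105) were lost. Gcsh was also lost when FRG+NTBC replicate 3 (0.0542) or, in turn, FRG-7dNTBC replicate 1 (0.0558) was left out, and without moderation only Dmgdh stayed among the enzymes called lower.

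The genes of branched-chain amino acid breakdown gave mixed calls, with 6 of 15 enzymes called lower, 1 called higher and 8 that did not pass the test (median log2 fold change -0.44). Among all genes, 12.7% were called lower and 17.4% higher, with a median of -0.05. Bcat2, the mitochondrial transaminase that starts the pathway, was dim, at 24.1, 16.9 and 19.7 in FRG-7dNTBC and 29.2, 62.7 and 64.0 in FRG+NTBC livers. No FRG-7dNTBC mouse reached the FRG+NTBC range, and Bcat2 was called lower (limma adjusted p = 0.0153). The FRG-7dNTBC values lie near the bottom of the scale, where a further fall could not be seen, so the measured log2 fold change of -1.29 (SE 0.30) is not read as the size of the fall.

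In the branched-chain keto acid dehydrogenase, the committed step, the subunits had different calls. Bckdha had 1489, 1489 and 1218 in FRG-7dNTBC livers against 2120, 2257 and 2436 in FRG+NTBC livers. The groups did not overlap, and Bckdha fell by 0.70 on the log2 scale (SE 0.14, limma adjusted p = 0.00631). Bckdhb, its partner in the same catalytic component, had 929, 1136 and 572 in FRG-7dNTBC livers and 584, 989 and 976 in FRG+NTBC livers, with overlap and a 95% interval of -0.64 to 0.71. Dbt, the acyltransferase core, was at a log2 fold change of -0.00 (95% interval -0.42 to 0.42). Enzymes that set the activity of the complex were both lower. Bckdk, the kinase that switches it off, had 119, 125 and 114 in FRG-7dNTBC livers against 160, 206.5 and 204 in FRG+NTBC livers, a fall of 0.66 (SE 0.14, limma adjusted p = 0.0102). Ppm1k, the phosphatase that switches it on, fell by 1.52 (limma adjusted p = 0.000686).

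Downstream of the complex, Acadsb, the acyl-CoA dehydrogenase of isoleucine breakdown, had 676, 662 and 613 in FRG-7dNTBC against 1038, 1351 and 1333 in FRG+NTBC livers. The FRG-7dNTBC values were tightly grouped, and Acadsb fell by 0.92 on the log2 scale (SE 0.14, limma adjusted p = 0.00234). Hibch, which frees 3-hydroxyisobutyrate in valine breakdown, had 2020, 1652 and 1607 in FRG-7dNTBC livers against 1003, 1105 and 1193 in FRG+NTBC livers. All FRG-7dNTBC mice were higher, and Hibch rose 1.59-fold (log2 fold change 0.67, SE 0.14, limma adjusted p = 0.00932), with a further probe set at 1.48. Acad8, which acts before Hibch in the valine pathway, and Hibadh, which acts after it, did not pass the test, with log2 fold changes of -0.44 for Acad8 (95% interval -0.86 to -0.02) and -0.27 for Hibadh (limma adjusted p = 0.178).

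In leucine breakdown, the subunits of methylcrotonyl-CoA carboxylase had different calls. Mccc2, the beta subunit, had 404.5, 322 and 272 in FRG-7dNTBC livers against 416, 622 and 699 in FRG+NTBC livers, and fell by 0.78 (SE 0.23, limma adjusted p = 0.035) at its brightest probe set. Its dimmer probe sets did not pass, with log2 fold changes of 0.0034 and -0.22 (limma adjusted p = 0.996 and 0.412). Mccc1, the biotin-carrying alpha subunit, had 393, 380 and 300.2 in FRG-7dNTBC livers and 298, 202 and 272 in FRG+NTBC livers. Every FRG-7dNTBC mouse lay above every FRG+NTBC mouse, but the difference did not pass the test (log2 fold change 0.48, 95% interval 0.06 to 0.91, limma adjusted p = 0.0874). A dimmer Mccc1 probe set gave 44.3, 48.8 and 49.5 in FRG-7dNTBC against 147, 191 and 204 in FRG+NTBC livers, a log2 fold change of -1.91 (limma adjusted p = 0.000145), so the direction for this gene depends on the probe set. Ivd (isovaleryl-CoA dehydrogenase) had 1468, 635 and 787 in FRG-7dNTBC and 1351, 1209 and 1252 in FRG+NTBC livers at its brightest probe set and did not pass (limma adjusted p = 0.233). Its other probe set had 771, 508 and 491 in FRG-7dNTBC against 1652, 1574 and 1663 in FRG+NTBC livers, a log2 fold change of -1.50 (limma adjusted p = 0.00083). Auh, the hydratase that follows the carboxylase, was at 0.08 (limma adjusted p = 0.761), and 2 of its 6 probe sets were lower.

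Propionyl-CoA, a shared end product of isoleucine and valine, is carboxylated by Pcca and Pccb. Pcca had 843, 771 and 653 in FRG-7dNTBC against 1024, 1176 and 1113 in FRG+NTBC livers and fell by 0.55 (SE 0.14, limma adjusted p = 0.0206). Pccb had 446, 553 and 274 in FRG-7dNTBC livers and 315, 313 and 340 in FRG+NTBC livers, with overlap and a 95% interval of -0.21 to 0.89. Of 11 neighbouring branched-chain genes, 3 fell, against 12.7% of all genes. Besides Ppm1k these were the transporter gene Slc25a44 (log2 fold change -0.56, limma adjusted p = 0.0226) and the thiolase gene Acat1 (-0.53, limma adjusted p = 0.0356). Each of these 2 calls was lost in all but 1 of the 6 fits that leave out a mouse, with limma adjusted p up to 0.0684 for Slc25a44 and 0.0965 for Acat1 (0.00661 to 0.0707 and 0.0131 to 0.634 over their alternatives), and Acat1 was at 0.16 without probe sets that may match several transcripts. Mmut, the methylmalonyl-CoA mutase at the end of the propionate route, was at -0.02.

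Several branched-chain calls changed when a single mouse was left out. Over these fits the log2 fold change stayed negative for Bcat2 (-1.662 to -1.097), Mccc2 (-1.005 to -0.630) and Pcca (-0.637 to -0.452). Each such fit also has fewer mice, and the part of this in the lost calls was not tested. Without FRG+NTBC replicate 2 or FRG+NTBC replicate 3, only 3 enzymes were called lower, because Bcat2 (limma adjusted p = 0.066 and 0.0569, and 0.00168 to 0.113 over its alternatives), Mccc2 (0.119 and 0.111, and 0.00972 to 0.255) and Pcca (0.0802 and 0.0589, and 0.00423 to 0.0802) were lost. Mccc2 was lost too without FRG-7dNTBC replicate 2 (0.0685) or FRG-7dNTBC replicate 3 (0.0775) and with the replicate number as a block (0.0735). Without FRG-7dNTBC replicate 3, Mccc1 (0.046, and 0.00227 to 0.266 over its alternatives) and Pccb (0.0186, and 0.0186 to 0.736) were called higher, which made 3. Ivd was called lower without FRG-7dNTBC replicate 1 (0.0126, and 0.0117 to 0.802 over its alternatives) and Acad8 without FRG-7dNTBC replicate 2 (0.0491, and 0.0231 to 0.286).

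None of the 4 general transaminases passed the test at its brightest probe set, with a median log2 fold change of -0.19. Got1, the cytosolic aspartate aminotransferase, had 434, 680 and 176 in FRG-7dNTBC livers and 288, 274 and 357 in FRG+NTBC livers. FRG-7dNTBC replicate 3 lay below all FRG+NTBC mice and the other two above, so that the 95% interval was wide (-0.69 to 1.28); without this mouse Got1 was called higher (log2 fold change 0.84, limma adjusted p = 0.0238, and 0.0238 to 0.87 over its alternatives). Got2, the mitochondrial form, had 4871, 5113 and 3444 in FRG-7dNTBC livers against 5149, 6517 and 6252 in FRG+NTBC livers. The groups did not overlap, but the difference of -0.43 did not pass (95% interval -0.85 to -0.01, limma adjusted p = 0.12). Gpt, the cytosolic alanine aminotransferase, had 1663, 1618 and 1342 in FRG-7dNTBC livers and 1722, 1652 and 1698 in FRG+NTBC livers (95% interval -0.44 to 0.16). Gpt2, the mitochondrial form, had 5113, 5113 and 7750 in FRG-7dNTBC livers and 7858, 6747 and 6165 in FRG+NTBC livers (95% interval -0.67 to 0.21).

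For Gpt2, Gpt and Got2 some of the other probe sets passed the test. All 3 dimmer Gpt2 probe sets were called higher, with log2 fold changes of 0.56, 0.73 and 1.24 (limma adjusted p = 0.0163, 0.0116 and 0.00624). The brightest of these had 3259, 3541 and 3468 in FRG-7dNTBC against 2226, 2665 and 2106 in FRG+NTBC livers. A dimmer Gpt probe set was lower, with 172, 128 and 179 in FRG-7dNTBC against 317, 338 and 298 in FRG+NTBC livers (log2 fold change -1.01, limma adjusted p = 0.00248). Of the 3 dimmer Got2 probe sets, a pair at mean intensities of 16.7 and 8.06 in FRG-7dNTBC and 26.7 and 12.7 in FRG+NTBC livers was lower (log2 fold change -0.67 and -0.65, limma adjusted p = 0.00769 and 0.0349), and the other was at 0.57 (limma adjusted p = 0.413). Glud1, the glutamate dehydrogenase that releases the collected amino groups, was at 0.36 (limma adjusted p = 0.196), and Mdh2, the mitochondrial malate dehydrogenase, rose by 0.90 (limma adjusted p = 0.00162).

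Over all enzymes, 58 probe sets were measured, of which 29 were lower and 6 higher, against 13.9% and 14% of all probe sets. Of the 15 enzymes with several probe sets, Uroc1, Amdhd1, Sardh and Bckdk were lower at each, Hibch was higher at each, and Acad8 and Hibadh were called at none. The other 8 had calls at some probe sets, all in 1 direction, and no enzyme was called in both directions.

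**Figure D3:**
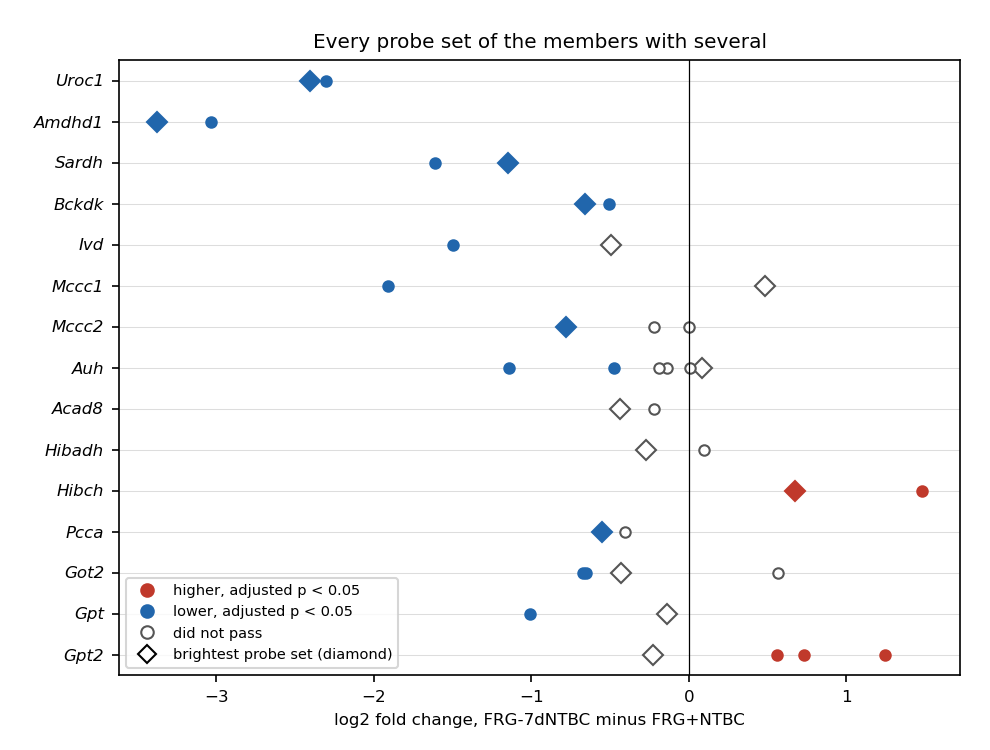
Log2 fold change between 3 FRG-7dNTBC and 3 FRG+NTBC mice at every probe set of the 15 enzymes with several; a diamond marks the brightest probe set, and colour marks the call. Ivd, Mccc1, Auh, Got2, Gpt and Gpt2 show calls at dimmer probe sets only, higher for Gpt2 and lower for the others.

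To ask whether partner enzymes differed from each other in their response, the log2 difference of 8 pairs was taken within each mouse and compared between the groups by a two-sided exact permutation test, which cannot go below p = 0.1 with 3 mice against 3. The groups did not overlap in 5 pairs, each at the smallest possible p of 0.1 (0.16 after adjustment over the 8 pairs, exact permutation test). In these, the fold change of Prodh was lower than that of Prodh2 by a log2 difference of -1.53, Agxt than Agxt2 by -1.09, Pcca than Pccb by -0.89 and Bckdha than Bckdhb by -0.74. Mccc1 was above Mccc2 by 1.27, at the brightest probe set of each. The differences for Got1 and Got2 (0.72), Gpt and Gpt2 (0.09) and Bckdk and Bckdha (0.04) overlapped between the groups (exact permutation p = 0.3, 0.8 and 0.7). All pairs were taken at the brightest probe sets. Dimmer probe sets, at log2 fold changes of -1.01 for Gpt and 0.56, 0.73 and 1.24 for Gpt2, were not compared as pairs. Nor were those of Mccc1, at -1.91, and Mccc2, at 0.0034 and -0.22, so the order of Mccc1 and Mccc2 depends on the probe sets chosen.

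FRG-7dNTBC mice varied more than FRG+NTBC mice in these enzymes. The median SD of the log2 values was 0.285 in FRG-7dNTBC and 0.179 in FRG+NTBC livers, against 0.176 and 0.168 over all genes, and the SD was larger in FRG-7dNTBC mice for 25 of the 34 enzymes (53.7% of all genes). FRG-7dNTBC replicate 3 was the lowest of its group in 24 enzymes, replicate 2 in 8 and replicate 1 in 2, while over all genes these shares were 35.1%, 37.4% and 27.4%. Of the 18 enzymes that fell, replicate 3 was lowest in 12. The same mouse was lowest in 11 of the 14 that did not pass. No test was made of this difference between mice.

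**Figure D4:**
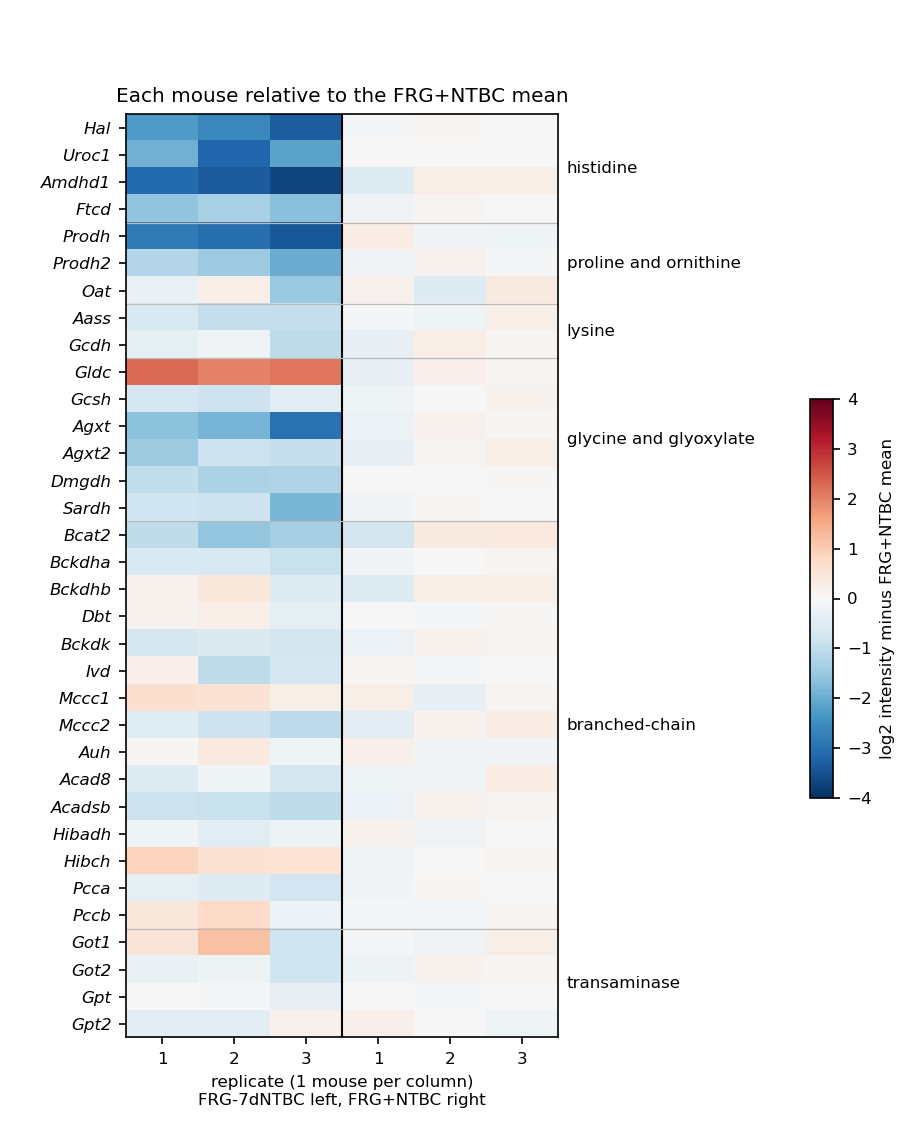
Log2 intensity of the 34 enzymes in each mouse minus the FRG+NTBC mean of that enzyme, with the 3 FRG-7dNTBC mice left and the 3 FRG+NTBC mice right. The histidine and proline rows are low in all 3 FRG-7dNTBC mice, whereas of the FRG-7dNTBC mice only replicate 3 is low for Got1, Pccb and Bckdhb.

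Markers of hepatocyte zones were read beside the enzymes, against 12.7% of all genes called lower and 17.4% higher. Of 5 periportal markers, 3 were lower (Pck1, Ass1 and Cps1) and Cyp2f2 and Arg1 did not pass (log2 fold change -0.0033 and -0.47), and their summed intensity was 20802 to 26903 in FRG-7dNTBC and 31864 to 34053 in FRG+NTBC livers. The only Ass1 probe set was dim, at 20.1, 27.3 and 16.1 in FRG-7dNTBC against 73.5, 175 and 97.0 in FRG+NTBC livers. The dimmer Pck1 probe sets did not pass (limma adjusted p = 0.305 and 0.395). Of 6 pericentral markers, 4 were lower (Glul, Cyp2e1, Slc1a2 and Rgn), Lect2 was higher (log2 fold change 1.09) and Cyp1a2 did not pass (0.66), at a sum of 17777 to 21747 in FRG-7dNTBC and 31190 to 32868 in FRG+NTBC livers. The dimmer Glul probe set did not pass (limma adjusted p = 0.523). Of the dimmer Slc1a2 probe sets, those at -0.70 and -0.83 were lower and those at -0.33 and -0.43 did not pass (limma adjusted p = 0.248 and 0.0833). Among the other cell types, 2 of 6 macrophage, 1 of 6 stellate and 1 of 5 endothelial markers were higher and none was lower, and 0 of 5 cholangiocyte, 0 of 3 neutrophil and 0 of 3 proliferation markers passed at their brightest probe sets. Together, 4 of these 28 markers (14.3%) were higher, near the background of 17.4%. A dimmer probe set of the cholangiocyte and progenitor marker Epcam was higher, with 27.7, 20.7 and 25.5 in FRG-7dNTBC against 17.8, 17.1 and 15.0 in FRG+NTBC livers (log2 fold change 0.56, limma adjusted p = 0.0265). Macrophage sums were 1365 to 3950 in FRG-7dNTBC and 1550 to 2252 in FRG+NTBC livers, stellate sums 638 to 2860 in FRG-7dNTBC and 1153 to 1424 in FRG+NTBC livers, and endothelial sums 1018 to 1249 in FRG-7dNTBC and 659 to 1017 in FRG+NTBC livers. No marker was at 0, and Cftr was the dimmest at 5.74 to 7.73. Their part in the falls of the enzymes was not tested.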

How the data were processed

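The deposited values are linear intensities that the authors obtained by Robust Multiarray Analysis, which normalizes arrays by quantiles and sums probes by median polish. Transcriptome Analysis Console is named in the submitters' processing notes. Log2 of the intensity was taken here. Probe sets were named by the array annotation, in which 34945 have 1 symbol, 932 several and 9160 none. Tests used limma 3.58.1 in R 4.3.3, with lmFit and eBayes over 45037 probe sets and no covariate, after a test on simulated data. With 3 arrays per group, their number limits the precision. The mice are separate animals by the methods.

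The members and lists were chosen with earlier results of these data known. Named were all members, and of neighbouring enzymes and regulators those called with the largest changes, up to 4 per list, and the best known. Genes of regulators, markers and neighbouring enzymes that fall outside this were named after their values were seen. Deviations of same-numbered mice correlated at 0.106, 0.0339 and -0.156, within the -0.212 to 0.216 of differently numbered mice. The replicate numbers are not stated to pair the mice, and with 3 mice per group these correlations cannot exclude a pairing.

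Alternatives were scaling to the 75th percentile, quantile normalization once more, no dim probe sets, an intensity trend, no moderation, array weights, no probe sets that may match several transcripts, the mean of all probe sets, a replicate block and leaving out each mouse. Promoter windows came from RefSeq (GRCm38.p6). Neighbouring genes without a probe set of their own (7 of 35), and the study's blood, protein, histology and PCR data, were not analysed here.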

Additional observations from a re-analysis of the deposited data

How the results depend on the processing

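Of the 20 enzymes called, 12 kept the call under all 15 alternatives in which they were computed, 8 lost it under at least 1, and 0 reversed. Over all probe sets, scaling to the 75th percentile moved the median log2 fold change by -0.13, and quantile normalization once more by 0.06. The second shift does not describe each enzyme. With quantile normalization once more, the log2 fold change moved from -2.71 to -2.87 for Hal and from 2.13 to 1.95 for Gldc. Without moderation of the variances, 10 enzymes were called lower, among them 0 lysine, 1 glycine and glyoxylate and 3 branched-chain enzymes, and the neighbouring enzymes called were 1 higher and 4 lower. With array weights, 2 branched-chain and 6 neighbouring enzymes were called higher. Leaving out probe sets that may match several transcripts gave 1 proline and ornithine enzyme lower (of 2 measured), 1 transaminase higher, 1 transaminase lower and 1 neighbouring enzyme higher. With the mean of all probe sets, 1 transaminase was higher, 1 was lower and 1 neighbouring enzyme was higher. Under scaling to the 75th percentile, and under quantile normalization once more, 1 transaminase was lower. The cause of these moves was not tested.

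Signs turned for enzymes that had not passed the test. Bckdhb was at -0.10, -0.16 and -0.0083 with 75th percentile scaling, quantile normalization once more and array weights, and Auh at -0.047 and -0.10 with the first and second of these. Dbt was at 0.066 with array weights. Without probe sets that may match several transcripts, Auh was at -1.14, Hibadh at 0.093, Got2 at 0.57 and Gpt2 at 0.73. With the mean of all probe sets, Mccc1 was at -0.72, Auh at -0.31 and Gpt2 at 0.58.

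Leaving out each mouse gave 2 to 5 enzymes higher and 13 to 18 lower, 3 to 5 glycine and glyoxylate enzymes lower, 1 to 3 branched-chain enzymes higher and 3 to 7 lower, 0 to 1 transaminases higher, and 1 to 3 neighbouring enzymes higher and 4 to 7 lower. The log2 fold change ran from -0.22 to 0.32 for Bckdhb, -0.14 to 0.20 for Dbt, -0.067 to 0.22 for Auh and -0.14 to 0.84 for Got1. For neighbouring enzymes called higher, the count was 1 without FRG+NTBC replicate 2, and for those called lower it was 5 when FRG+NTBC replicate 2 or 3 was left out and 4 when FRG-7dNTBC replicate 3 was. With the replicate number as a block, 17 enzymes were called lower, and no other call among the 20 changed (Mccc2 log2 fold change -0.78, limma adjusted p = 0.0735 in the block fit). Bcat2 in FRG-7dNTBC livers lay near the bottom of the scale, which limits what fall could be measured.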

Other observations

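A list of genes of liver transcription factors and receptors was read beside the enzymes. Of 10 measured, 8 were lower in FRG-7dNTBC livers and 0 higher, against 12.7% and 17.4% of all genes, with a median log2 fold change of -1.09. This list too was chosen with earlier results of these data known. Ppara, the nuclear receptor of the fasting response, had an intensity of 580, 744 and 413 in FRG-7dNTBC livers against 2150, 3468 and 2856 in FRG+NTBC livers (log2 fold change -2.30, limma adjusted p = 0.000484). Gcgr, the glucagon receptor, had 809, 699 and 739 in FRG-7dNTBC livers against 2353, 3517 and 2876 in FRG+NTBC livers (log2 fold change -1.94, limma adjusted p = 0.000187). In both, all FRG-7dNTBC mice lay below all FRG+NTBC mice. Klf15, a factor known to control amino acid breakdown genes in mouse liver, had 474, 468 and 247 in FRG-7dNTBC livers against 1038, 1201 and 1209 in FRG+NTBC livers (log2 fold change -1.59, limma adjusted p = 0.00249), a call that was lost without moderation (limma adjusted p = 0.0509, and 0.000578 to 0.0509 over its alternatives). Foxo1, which insulin restrains, fell by 1.41 (limma adjusted p = 0.000597), but was at -0.50 and not called without probe sets that may match several transcripts (limma adjusted p = 0.0503, and 0.000123 to 0.0503 over its alternatives). Hnf4a, the hepatocyte nuclear factor, fell by 0.50 (limma adjusted p = 0.0225). The Hnf4a call was lost when FRG+NTBC replicate 2 or 3 (0.0867, 0.0546) or FRG-7dNTBC replicate 1 or 2 (0.0606, 0.0646) was left out and turned to 0.16 without probe sets that may match several transcripts (limma adjusted p = 0.00847 to 0.969 over its alternatives), and that of Ppargc1a when FRG+NTBC replicate 1 or 2 or FRG-7dNTBC replicate 1 was left out (limma adjusted p = 0.0616, 0.0555 and 0.0502, and 0.00246 to 0.105 over its alternatives). Cebpa (log2 fold change -1.07, limma adjusted p = 0.00149) and Nr3c1 (-0.72, limma adjusted p = 0.0081) were lower too and kept the call under every alternative. Nr3c1 was lower at 2 of its 6 probe sets. Cebpb was at -0.11 (limma adjusted p = 0.6) and Nr1i3 at -1.12 (limma adjusted p = 0.0809), neither past the threshold. Whether any of these bears on the enzymes was not tested.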
